A study of Mus musculus with 9 samples.

Results

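Mast cells are granule-filled immune cells that in the skin sit mainly in the dermis, around vessels and nerves. They depend on the receptor tyrosine kinase Kit, carry IgE on the high-affinity receptor FcεRI, make histamine with the decarboxylase Hdc, and store proteases on heparin in their granules. The 8 mast cell genes described here are the receptors Kit, Fcer1a and Ms4a2, the enzyme Hdc, and the granule proteases Cpa3, Cma1, Mcpt4 and Tpsb2. They were chosen by name, with earlier results of these data known, and every probe set assigned to exactly 1 of these symbols was taken. All 8 genes were measured, by 12 of the 45037 probe sets on the array, and they are 8 of the 18193 genes that such probe sets name. Kit, Ms4a2, Hdc and Tpsb2 had 2 probe sets each, and the other 4 genes had 1.

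The study profiled epidermis of adult mice on Affymetrix Mouse Genome U430 2.0 arrays, 1 array per mouse. The 5 Alox12b fl/fl Cre mice (Cre mice below; genotype p/p +/cre, phenotype given as diseased) were homozygous for a floxed Alox12b, which encodes an epidermal lipoxygenase needed for the skin barrier. They also expressed the tamoxifen-dependent Cre-ERT2 from the cytokeratin K14 promoter, which is active in basal keratinocytes. The 4 Alox12b fl/fl mice (control mice; genotype p/p +/+) were homozygous floxed littermates without Cre. All 9 mice had been backcrossed for 5 generations to hairless SKH1, were treated at 8 weeks of age with 3 intraperitoneal injections of 1 mg tamoxifen, and were killed 6 days after the treatment. Because Cre was present in the Cre mice alone, loss of Alox12b and the action of Cre cannot be told apart. The epidermis had been scraped from frozen skin, so dermal cells could remain. In a bulk sample, fewer cells of a type and less RNA per cell cannot be told apart.

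Values are log2 intensities as deposited, and their precision is limited by the number of arrays. Array medians ran from 4.34 to 4.42. Alox12b itself, on its single probe set, read 10.07, 10.17, 10.04, 9.67 and 9.50 in Cre mice 1 to 5, against 9.40, 9.33, 9.20 and 9.19 in control mice 1 to 4. Where that probe set lies relative to the floxed part is not given in the sources used here, so the level does not check the deletion. Keratinocyte markers were among the brightest probe sets of the arrays, all 10 of them at or beyond percentile 97.59 of brightness. Fibroblast markers, which belong to the dermis, were bright too. The 11 measured ones ran from percentile 58.02 to 99.62, and in control mice Col1a2 averaged 12.88, against 12.26 for Krt5. Brightness thus does not show that the samples were free of dermis.

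In epidermis of Cre mice 3 of the 8 mast cell genes rose and none fell. Fcer1a, the IgE-binding chain of FcεRI, was 2.84-fold higher, and Hdc, which makes histamine from histidine, was 2.67-fold higher. Kit rose by a smaller amount, 1.30-fold. The other FcεRI chain on the list, Ms4a2, and the 4 granule proteases did not pass. Of all genes, 15.5% were higher and 18.9% lower at the same threshold, 34.4% in all (limma with Benjamini-Hochberg adjustment over all probe sets, adjusted p below 0.05). In either direction 3 of 8 is close to the share of all genes, and it is larger than the share of higher genes alone. The list is short and was chosen with earlier results of these data known, so nothing more is read from that share. On probe sets, 5 of 12 were higher and none lower, against 12.7% higher and 16.0% lower of all probe sets (28.6% in either direction); at an unadjusted p below 0.05 the member probe sets numbered 6 higher and 0 lower. Cre and control values were fully separate for 2 of the 8 genes, both higher, against 14.0% of all genes higher without overlap, 17.6% lower and 31.6% in all. On probe sets this held for 4 of 12, against 25.7% of all. The median difference of the 8 genes was 0.17, and that of all genes was 0.03.

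**Figure D1:**
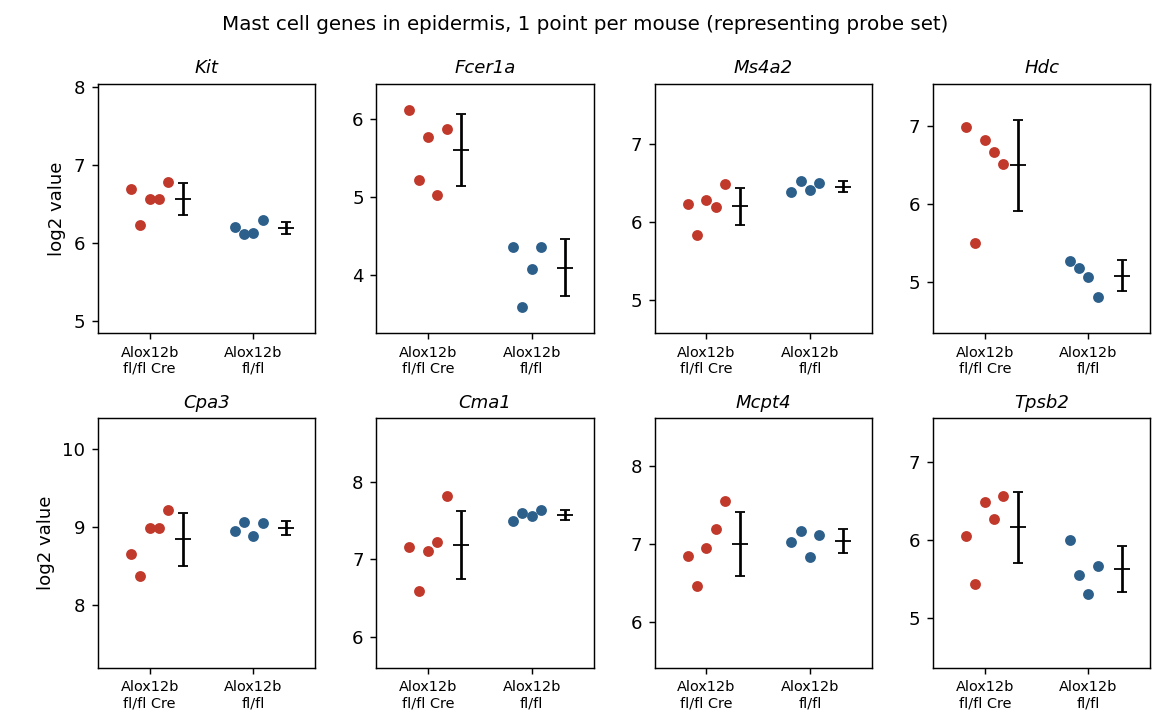
Log2 value of each mast cell gene on its brighter or only probe set, 1 point per mouse, Alox12b fl/fl Cre on the left of each panel (n = 5) and Alox12b fl/fl on the right (n = 4), with mean and SD in black; every panel spans the same range on the log2 axis. Fcer1a and Hdc of the Cre mice lie above all control mice, while the Cpa3, Cma1, Mcpt4 and Ms4a2 values of the groups overlap.

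Promoter sequences are printed for both genes that rose most, Fcer1a and Hdc, and for a pair of proteases that did not pass, Cpa3 and Mcpt4. GATA factors, GATA2 above all, are known to drive mast cell genes. Of the letters they bind, AGATAA and TGATAA were searched on both strands, with overlapping matches counted separately. Forms that end in G, AGATAG and TGATAG, were not searched. RefSeq sequence (GRCm38.p6) was matched for 7 of the 8 genes, from 250 bases before to 50 bases after the transcription start, and Tpsb2 was not matched. Capitals mark a motif, read on the strand of the gene.
Fcer1a, chr1:173227180-173227479, minus strand: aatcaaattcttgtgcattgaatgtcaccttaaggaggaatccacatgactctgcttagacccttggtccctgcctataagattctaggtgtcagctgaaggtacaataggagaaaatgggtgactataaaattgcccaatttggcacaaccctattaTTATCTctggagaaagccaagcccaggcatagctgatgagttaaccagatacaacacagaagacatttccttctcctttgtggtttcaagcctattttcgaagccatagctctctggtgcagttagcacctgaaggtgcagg
Hdc, chr2:126618629-126618928, minus strand: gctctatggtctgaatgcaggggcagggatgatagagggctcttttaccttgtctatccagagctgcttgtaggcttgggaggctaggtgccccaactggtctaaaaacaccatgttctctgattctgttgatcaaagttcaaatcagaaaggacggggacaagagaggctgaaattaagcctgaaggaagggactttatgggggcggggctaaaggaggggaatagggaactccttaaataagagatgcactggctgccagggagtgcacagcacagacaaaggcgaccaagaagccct
Cpa3, chr3:20242132-20242431, minus strand: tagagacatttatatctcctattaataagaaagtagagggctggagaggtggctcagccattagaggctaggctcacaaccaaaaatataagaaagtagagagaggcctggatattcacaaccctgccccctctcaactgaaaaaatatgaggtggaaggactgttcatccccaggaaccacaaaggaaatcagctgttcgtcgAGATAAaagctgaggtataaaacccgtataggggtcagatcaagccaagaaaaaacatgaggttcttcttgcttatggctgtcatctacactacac
Mcpt4, chr14:56062261-56062560, minus strand: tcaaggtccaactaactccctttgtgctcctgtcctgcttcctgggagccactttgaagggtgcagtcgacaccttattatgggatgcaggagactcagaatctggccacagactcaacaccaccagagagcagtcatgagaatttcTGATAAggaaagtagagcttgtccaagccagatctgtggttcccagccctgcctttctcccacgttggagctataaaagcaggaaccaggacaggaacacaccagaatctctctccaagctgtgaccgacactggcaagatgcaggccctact

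The motif lay 92 bases upstream of the start in Fcer1a, 46 in Cpa3 and 103 in Mcpt4, counted at its first base. Ms4a2 held 3 matches, 224, 37 and 11 bases upstream. Hdc, Kit, with a pair of promoters in the table, and Cma1 held neither AGATAA nor TGATAA in these windows. The unsearched TGATAG occurs in the Hdc window, and AGATAG on the other strand of the Cma1 window, so these windows are not free of GATA letters. Thus 4 of 7 mast cell genes had a match, against 21.0% of the 27025 genes with a promoter of 300 bases in the table. Of the genes that rose, Fcer1a held a match and Hdc and Kit did not, while Cpa3, Mcpt4 and Ms4a2, which did not pass, held one.

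Among the receptors, Fcer1a on its single probe set read 6.12, 5.22, 5.77, 5.03 and 5.88 in Cre mice 1 to 5, against 4.36, 3.59, 4.08 and 4.36 in control mice 1 to 4. The lowest Cre mouse lay above the highest control mouse, and Cre mice 2 and 4 were the lower ones of their group. The difference was 1.51 ± 0.24 (SE; limma, adjusted p = 0.000948), with a 95% interval of 0.99 to 2.03 and an exact two-sided permutation p of 0.00794, the smallest that the 126 splits of the arrays can give. Of all genes, 1.16% were higher by at least as much. Fcer1a passed in all 18 alternative settings, with differences of 1.34 to 1.65.

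Ms4a2, the signal-amplifying beta chain of the same receptor, did not pass on either probe set. Its brighter probe set read 6.23, 5.83, 6.29, 6.19 and 6.48 in Cre mice, against 6.38, 6.52, 6.40 and 6.50 in control mice. The groups overlapped, with Cre mouse 5 inside the control range and the other Cre mice below it. The difference was -0.25 ± 0.12 (SE; limma, adjusted p = 0.133), with a 95% interval of -0.51 to 0.01, which excludes a rise of the size seen for Fcer1a. Without Cre mouse 5 it was -0.32 (adjusted p = 0.0471). The second probe set read 4.56 ± 0.44 (SD, n = 5) in Cre mice and 4.70 ± 0.22 (SD, n = 4) in control mice and did not pass (limma, adjusted p = 0.644). Fcer1g, the gamma chain that FcεRI shares with other Fc receptors and that was singled out after its value was seen, fell by 0.39 ± 0.12 (SE; limma, adjusted p = 0.0379). In the same arrays 5 of 8 macrophage markers and 4 of 6 Langerhans cell markers were lower, against 18.9% of all genes. The part of these cells in the Fcer1g level was not tested.

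Kit, the receptor for stem cell factor on which mast cells depend, read 6.69, 6.23, 6.57, 6.56 and 6.78 in Cre mice on its brighter probe set, against 6.21, 6.12, 6.14 and 6.29 in control mice. Cre mouse 2 lay within the control range and the other Cre mice lay above it. The difference was 0.38 ± 0.11 (SE; limma, adjusted p = 0.0226). It passed in 14 of 18 alternative settings; the call was lost without control mouse 2 (adjusted p = 0.0644), without control mouse 3 (adjusted p = 0.0641) and with sex as a covariate (adjusted p = 0.0511). The dimmer probe set read 4.23, 3.83, 3.85, 4.03 and 3.87 in Cre mice, against 3.62, 3.55, 3.39 and 3.50 in control mice. On it the groups did not overlap, the difference was 0.45 ± 0.10 (SE; limma, adjusted p = 0.00557), and it passed in all 17 alternatives that kept it.

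Kit is also a gene of melanocytes, the pigment cells, and their markers moved in the same arrays. Of 8 melanocyte markers 7 were higher and 1 lower, against 15.5% higher and 18.9% lower of all genes. The median difference of the list was 1.15. Dct, an enzyme of melanin synthesis, was higher by 2.78 ± 0.39 (SE; limma, adjusted p = 0.000521), and Ednrb fell by 1.37 ± 0.24. The summed intensity of the list ran from 236 to 599 in Cre mice and from 193 to 235 in control mice. Relative to the controls, the median over the list was 1.78 in Cre mouse 2 and 1.81 in Cre mouse 3, where Kit on its brighter probe set differed from the control mean by 0.04 and 0.38. In Cre mice 1, 4 and 5 that median was 0.76, 0.73 and 0.70 and Kit differed by 0.50, 0.37 and 0.59. The part of melanocytes in the Kit level was not tested.

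Hdc was read by a pair of probe sets that gave nearly the same difference. The brighter one read 6.98, 5.50, 6.82, 6.66 and 6.51 in Cre mice, against 5.27, 5.17, 5.06 and 4.80 in control mice. Every Cre mouse lay above every control mouse, with Cre mouse 2 the nearest to them. The difference was 1.42 ± 0.26 (SE; limma, adjusted p = 0.00227), with a 95% interval of 0.85 to 1.99, and on the other probe set it was 1.41 ± 0.25 (SE; limma, adjusted p = 0.00183). Both passed in all 18 alternative settings, with differences of 1.29 to 1.67 and 1.27 to 1.61. Of all genes, 1.36% were higher by at least as much as Hdc. Both probe sets end in _s_at, a name that marks probes which can match more than 1 transcript.

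Hdc and Fcer1a are also expressed by basophils, and Hdc by neutrophils and their precursors. Of the 4 basophil markers 3 were measured and 1 rose. Mcpt8, a basophil protease, read 3.66, 3.47, 3.36, 3.49 and 3.99 in Cre mice, against 2.90, 2.98, 2.88 and 2.80 in control mice, a difference of 0.70 ± 0.12 (SE; limma, adjusted p = 0.00159) on a dim probe set. Cd200r3 differed by 0.09 (adjusted p = 0.547) and Il3ra by -0.20 (adjusted p = 0.102), and the summed intensity of the 3 markers ran from 34.7 to 40.9 in Cre mice and from 32.8 to 38.5 in control mice. Of 7 measured neutrophil markers 2 were higher, Ltf and Cxcr2, and 1 was lower, Mpo. Their summed intensity was 146 to 158 in Cre mice and 147 to 214 in control mice. For both lists the counts stand against 15.5% higher and 18.9% lower of all genes, 34.4% in all. The part of either cell type in the Hdc and Fcer1a levels was not tested.

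**Figure D2:**
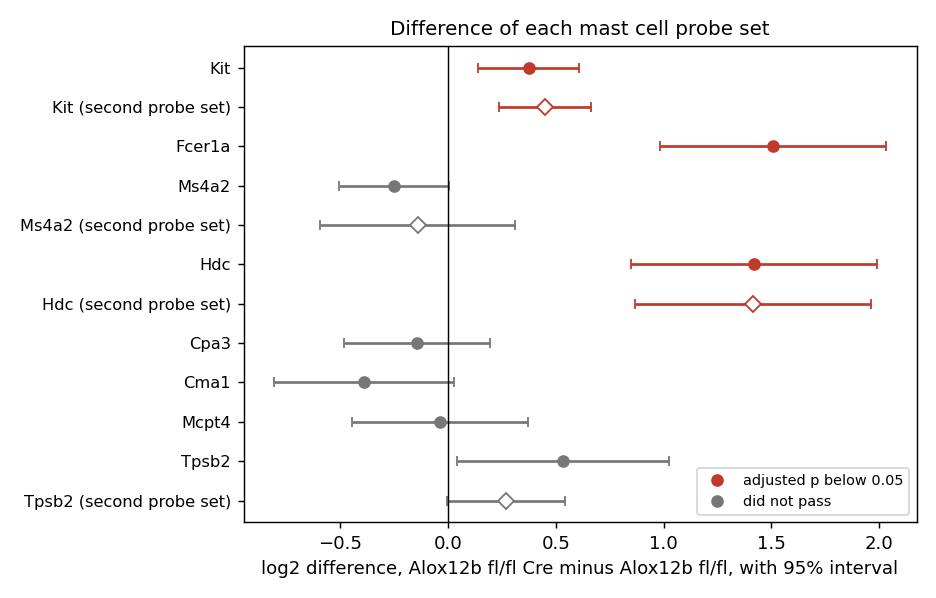
Log2 difference, Alox12b fl/fl Cre minus Alox12b fl/fl, of the 12 mast cell probe sets, with 95% intervals from limma that are not adjusted for multiple testing; open diamonds are the dimmer probe set of a gene and red marks an adjusted p below 0.05. Fcer1a and both Hdc probe sets stand near 1.4 to 1.5, both Kit probe sets near 0.4, and no probe set passed on the lower side.

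None of the 4 granule proteases passed in the main fit. The Cma1, Mcpt4 and brighter Tpsb2 probe sets, like both of Kit, have names ending in _a_at, which marks probes that can match several transcripts. That name does not say whether they belong to other genes. Signal from close relatives was not tested for any member. Cpa3, the mast cell carboxypeptidase, read 8.65, 8.36, 8.98, 8.99 and 9.22 in Cre mice, against 8.95, 9.06, 8.88 and 9.04 in control mice. The Cre mice spread to both sides of the control range, with Cre mice 1 and 2 below it and Cre mouse 5 above it. The difference was -0.14 ± 0.15 (SE; limma, adjusted p = 0.514), with a 95% interval of -0.48 to 0.19.

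Cma1 and Mcpt4, chymases of connective tissue mast cells, were spread in the same way. Cma1 read 7.16, 6.60, 7.11, 7.23 and 7.82 in Cre mice, against 7.50, 7.60, 7.55 and 7.64 in control mice. Cre mice 1 to 4 lay below all control mice and Cre mouse 5 above all of them. The difference was -0.39 ± 0.19 (SE; limma, adjusted p = 0.151), and without Cre mouse 5 it was -0.55 and passed (adjusted p = 0.0119). Mcpt4 read 6.84, 6.46, 6.94, 7.19 and 7.56 in Cre mice, against 7.02, 7.17, 6.83 and 7.12 in control mice, with a difference of -0.04 ± 0.18 (SE; limma, adjusted p = 0.900) and a 95% interval of -0.44 to 0.37. The sign of this small difference turned under other scalings.

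Tpsb2, a tryptase bound to heparin in the granule, was the protease with the highest difference. On its brighter probe set it read 6.06, 5.44, 6.49, 6.27 and 6.57 in Cre mice, against 6.00, 5.55, 5.31 and 5.67 in control mice. Cre mouse 2 lay inside the control range and the other Cre mice above it. The difference of 0.53 ± 0.22 (SE) did not pass (limma, adjusted p = 0.0979, with an exact two-sided permutation p of 0.0873). It passed in 3 of 18 alternative settings, among them without Cre mouse 2, at 0.72 (limma, adjusted p = 0.00984). With sex as a covariate it was 0.32 and did not pass (limma, adjusted p = 0.138). The second probe set was dim, at 2.83 ± 0.24 (SD, n = 5) in Cre mice and 2.56 ± 0.12 (SD, n = 4) in control mice, and did not pass (limma, adjusted p = 0.128). On it Cre mouse 2 was the highest of its group, unlike on the brighter one. With both probe sets averaged, in a fit on gene means, Tpsb2 was higher by 0.40 and passed (limma, adjusted p = 0.0136).

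The same Cre mice were at the ends of their group for most mast cell genes. Cre mouse 2 was the lowest of its group for 7 of the 8 genes, and Cre mouse 5 the highest for 6 of 8. Over all genes Cre mouse 2 was the lowest for 22.0% and Cre mouse 5 the highest for 23.9%. The SD among Cre mice was larger than among control mice for all 8 genes, by 7.33 times for Cma1, 3.90 times for Cpa3, 3.44 times for Ms4a2 and 1.27 times for Fcer1a, while the median ratio over all genes was 1.46. Centred on each gene's own mean, Cpa3 and Mcpt4 differed over the 9 arrays by a root mean square of 0.11 on the log2 scale, Ms4a2 and Cpa3 by 0.12, and Cma1 and Mcpt4 by 0.20. Fcer1a differed from Cma1 by 1.02 and from Cpa3 by 0.92, and from Hdc by 0.43. With this centring, which keeps the difference between the groups, Ms4a2 was nearest to Cpa3 among the members and Fcer1a to Hdc. Centred on the mean of each group instead, both were nearest to Kit, at 0.08 for Ms4a2, against 0.11 from Cpa3, and at 0.29 for Fcer1a, against 0.43 from Hdc. All these points share the 9 arrays, and no test is attached to them.

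**Figure D3:**
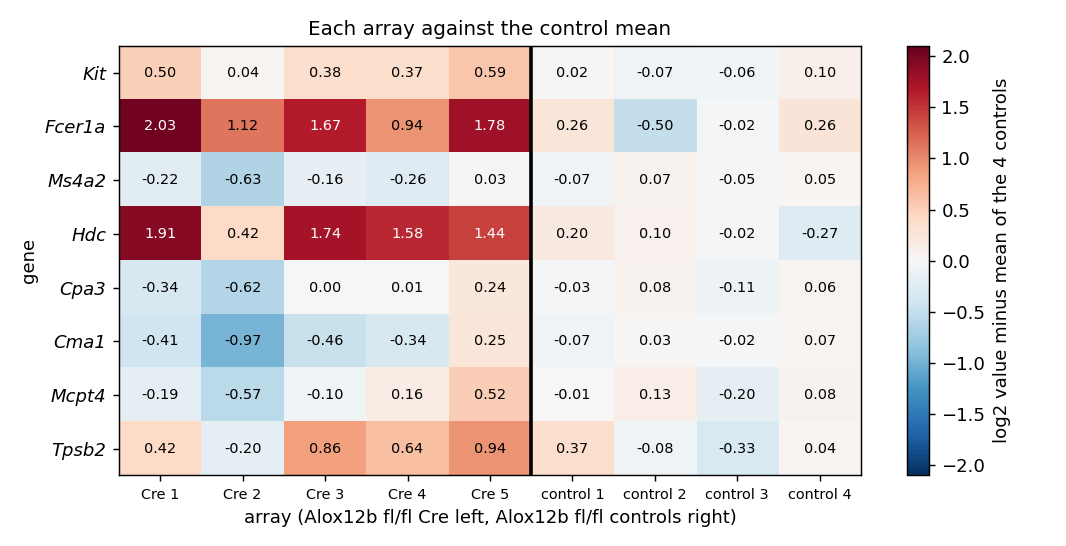
Each cell gives the log2 value of a mast cell gene (row) in an array (column) minus the mean of the 4 Alox12b fl/fl controls, with the Alox12b fl/fl Cre arrays left of the line; red is above and blue below the control mean. The Fcer1a row runs from 0.94 to 2.03 and the Hdc row from 0.42 to 1.91 in Cre mice, and the second Cre column is the lowest of its group in every row but Fcer1a.

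The genes of the array most like each member were named by the smallest root mean square difference over the 9 arrays, each gene centred on its own mean. For Fcer1a they were E2f8, Etv4 and Gm11545 (0.28, 0.28 and 0.31 on the log2 scale), and for Hdc Vcam1, Dcxr and Acaa1b (0.27, 0.29 and 0.29). For Kit they were Parp8, Rogdi and Elmo2 (0.09, 0.10 and 0.10), and for Tpsb2 Kank3, Abcc3 and Car12 (0.18, 0.21 and 0.21). Camk2g was among the 3 nearest of both Ms4a2 (0.06) and Cpa3 (0.11). The others were Zfp639 and Anp32b for Ms4a2, Tatdn3 and Fzd8 for Cpa3, Sfxn2, Fuom and Gstz1 for Cma1, and Slc25a33, Hacl1 and Car9 for Mcpt4. The distance depends on how far a gene moved, so members that moved little have closer neighbours.

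How large these differences are depends in part on how bright a probe set is. When all probe sets were ordered by mean level into 10 bands of equal size, the central 90% of differences ran from -0.98 to 0.67 in band 6, which holds Fcer1a, and from -1.06 to 0.75 in band 7, which holds the brighter Hdc probe set. Both genes lay beyond the upper end. In band 8, which holds the brighter Kit probe set, the range was -1.03 to 0.78, and in band 5, which holds the dimmer one, it was -0.74 to 0.52, so Kit lay inside on both.

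Of 14 measured genes of mast cell receptors and signalling, 3 were higher, 2 lower and 9 did not pass, close to the 15.5% higher and 18.9% lower of all genes. Kitl, the stem cell factor that activates Kit, read 7.32, 7.27, 7.22, 7.43 and 7.27 in Cre mice, against 6.56, 6.78, 6.72 and 6.89 in control mice. The groups did not overlap, and the difference was 0.57 ± 0.08 (SE; limma, adjusted p = 0.000552). The 3 other Kitl probe sets did not pass, with differences of 0.17, 0.37 and 0.24. The phospholipase Plcg2, which signals below immune receptors, rose by 0.64 ± 0.08 (SE). Csf2rb, the shared beta chain of receptors for growth factors of myeloid cells, rose by 0.71 ± 0.22 (SE), and the phosphatase Ptpn6, a brake on such signals, fell by 0.45 ± 0.13 (SE).

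Of 9 further granule genes 1 rose, Mcpt8, and none fell, against 15.5% higher and 18.9% lower of all genes. The tryptase Tpsg1 and the mucosal chymase Mcpt2 did not pass, with 0.21 (adjusted p = 0.122) and 0.31 (adjusted p = 0.0658), nor did Ndst2, which sulphates the heparin that holds the proteases, with -0.26 (adjusted p = 0.0668). Tpsab1, a tryptase related to Tpsb2 and singled out after its value was seen, differed by 0.25 ± 0.12 (SE; limma, adjusted p = 0.155).

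Of 9 transcription factors that act in mast cells and other blood cells, 5 were lower, 1 was higher and 3 did not pass, against 18.9% lower and 15.5% higher of all genes. Their median difference was -0.40, and that of all genes was 0.03. In the same arrays 4 of 5 T cell markers and 5 of 8 macrophage markers were lower, and their part in these values was not tested. Ikzf2, a zinc finger factor also expressed by T cells, fell by 1.85 ± 0.09 (SE; limma, adjusted p = 6.79e-07). Stat5b, a mediator of cytokine signals, fell by 0.65 ± 0.09 (SE). Its dimmer probe set did not pass, at -0.21 (limma, adjusted p = 0.168). Spi1, a factor of myeloid cells, fell by 0.60 ± 0.13 (SE) and Runx1 by 0.73 ± 0.21 (SE). Of the other Runx1 probe sets 2 were lower and 3 did not pass. Gata2 and Mitf, the factors most tied to mast cells and chosen knowing their values, differed by 0.17 ± 0.15 (SE; adjusted p = 0.419) and -0.10 ± 0.12 (SE; adjusted p = 0.572).

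Of 7 genes that handle or sense histamine, 1 fell and none rose, a smaller share than the 34.4% of all genes that changed. Hnmt, the methyltransferase that inactivates histamine, read 2.69, 2.92, 3.05, 3.90 and 3.91 in Cre mice, against 4.45, 4.52, 4.58 and 5.04 in control mice. Every Cre mouse lay below every control mouse, and the gene fell by 1.35 ± 0.26 (SE; limma, adjusted p = 0.00323). The histamine-making Hdc and the histamine-inactivating Hnmt thus moved in opposite directions in the same arrays. The receptors Hrh4 and Hrh3 and the diamine oxidase Aoc1 did not pass, with 0.15, 0.20 and 0.16.

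Among 8 measured enzymes and receptors of the lipid mediators that mast cells release, 2 were higher, 4 lower and 2 did not pass, against 15.5% higher and 18.9% lower of all genes. Ptgs2, the inducible cyclooxygenase, read 6.31, 6.27, 4.42, 5.52 and 3.79 in Cre mice, against 2.70, 2.57, 3.07 and 2.40 in control mice, and rose by 2.58 ± 0.48 (SE; limma, adjusted p = 0.00259). Ltc4s, which makes leukotriene C4, fell by 0.49 ± 0.09 (SE). Cysltr1, a leukotriene receptor, fell by 1.20 ± 0.11 (SE), and Alox5, the lipoxygenase that begins leukotriene synthesis, fell by 0.60 ± 0.12 (SE). Macrophage markers were lower in 5 of 8 in these arrays, and the part of other immune cells in these values was not tested.

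Of 11 cytokines and receptors that grow or activate mast cells, 3 were higher, 1 lower and 7 did not pass, so that 4 of 11 changed, close to the 34.4% of all genes. Il33, an alarmin released by damaged epithelium that acts on mast cells, read 10.16, 9.26, 9.08, 9.20 and 8.44 in Cre mice, against 7.77, 7.53, 7.26 and 7.51 in control mice. The groups did not overlap, and Il33 rose by 1.71 ± 0.27 (SE; limma, adjusted p = 0.00101). Tslp, an epithelial cytokine of type 2 immunity, rose by 0.74 ± 0.24 (SE) with overlapping groups, and Csf2 by 0.62 ± 0.11 (SE) on a dim probe set. Tgfb1 fell by 0.54 ± 0.12 (SE) on its brighter probe set. The dimmer one went the other way, by 0.21, and did not pass (limma, adjusted p = 0.0661).

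**Figure D4:**
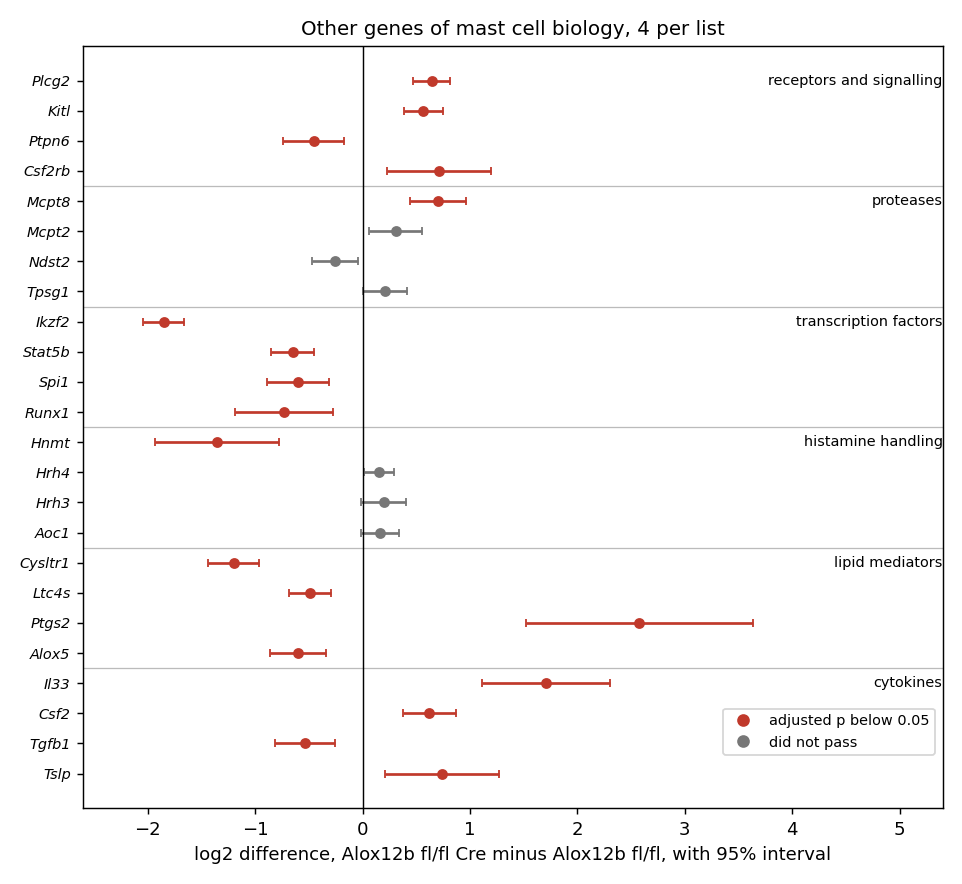
Log2 difference, Alox12b fl/fl Cre minus Alox12b fl/fl, of the 4 genes with the lowest adjusted p in each of 6 lists of mast cell biology, with 95% intervals from limma that are not adjusted for multiple testing; red marks an adjusted p below 0.05. Ptgs2 and Il33 rose most and Ikzf2, Hnmt and Cysltr1 fell most among those drawn.

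Markers of the dermis and of other immune cells moved in these arrays while the mast cell proteases did not pass. Fibroblast markers fell in 10 of 11 measured genes, against 18.9% of all genes, and their median difference was -1.08. Their summed intensity was 10174 to 17284 in Cre mice and 18601 to 31017 in control mice. The collagen Col1a2 fell by 1.30 ± 0.21 (SE) and Col5a1, of another collagen, fell by 1.80 ± 0.29 (SE), while Lum fell by 1.01 ± 0.16 (SE) and Dpt fell by 1.08 ± 0.17 (SE). The sum was lowest in Cre mouse 3, at 10174, against 10297 in Cre mouse 2. Relative to the controls, the median over the list was -0.66, -1.52, -1.40, -0.90 and -0.97 in Cre mice 1 to 5. It was lowest in Cre mouse 2, which was also lowest for most mast cell genes. In Cre mouse 5, the highest for most mast cell genes, it was neither lowest nor highest. Endothelial markers went both ways (of 9, 1 passed higher, 1 lower). Their median relative to the controls was also lowest in Cre mouse 2, at -0.28, and next lowest among Cre mice in Cre mouse 5, at -0.04. Macrophage markers fell in 5 of 8, Langerhans cell markers in 4 of 6 and T cell markers in 4 of 5. None of these rose on the probe set that represents the gene. On its dimmer probe set the Langerhans cell marker Cd86 was higher, by 0.58 (limma, adjusted p = 0.0139). Its brighter one did not pass, at 0.26 (limma, adjusted p = 0.347). Over all genes the shares were 15.5% higher and 18.9% lower. The part of the dermal share in the mast cell values was not tested.

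Of 14 genes of foreign tissues, such as sperm protamines and pancreatic insulin, 12 were measured. Among them 1 rose and none fell, against 15.5% higher and 18.9% lower of all genes. The one that rose was Ttr, by 0.38 ± 0.07 (SE, limma, adjusted p = 0.00228). Its other probe sets did not pass, with 0.10, -0.01 and 0.05. The median difference of the 12 genes was 0.15. That of the 8 mast cell genes was 0.17, but these ran from -0.39 for Cma1 to 1.51 for Fcer1a. The brightness of the 12 ran from percentile 4.37 to 58.4 of all probe sets, and that of the 8 from 56.53 to 93.55. Nothing is therefore read from how near the medians of these lists are. The 12 include probe sets about as bright as that of Fcer1a, at percentile 56.5.

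**Figure D5:**
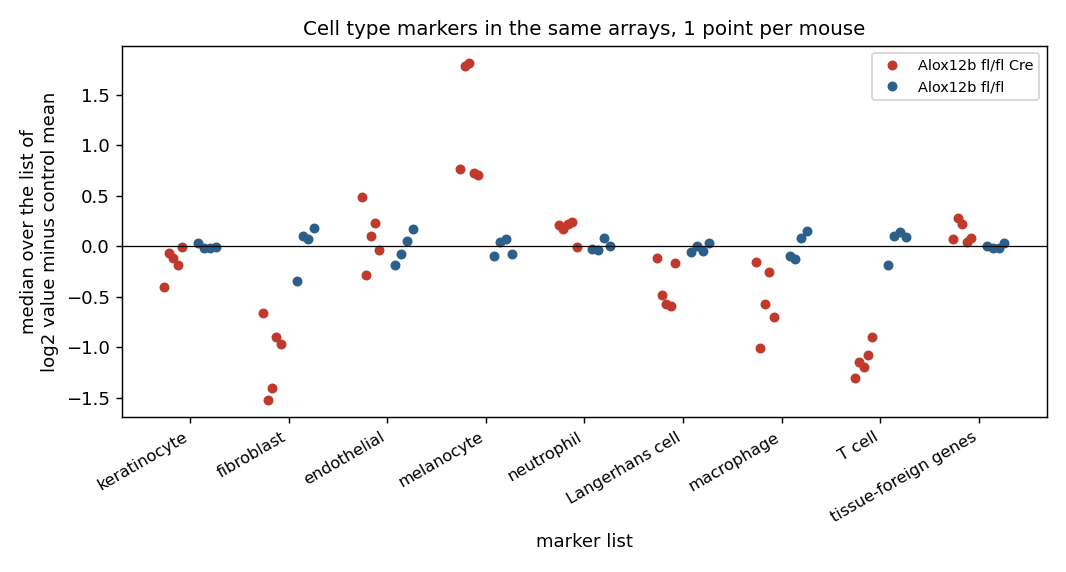
Median over each marker list of the log2 value minus the control mean, 1 point per mouse, with Alox12b fl/fl Cre in red to the left and Alox12b fl/fl in blue to the right. Melanocyte markers of the Cre mice lie at 0.70 to 1.81, while fibroblast markers lie at -1.52 to -0.66 and T cell markers at -1.31 to -0.90.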

How the data were processed

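Total RNA of epidermis from 9 mice was hybridised to 1 array each, per the labels' protocols. The authors deposited log2 values, made with the R package affy per the submitters' processing notes; background correction, normalisation and summary: not given in the sources used here; the log base was read from the array maxima of 13.47 to 13.53, above the natural log of the scanner limit (11.1). No probe set was filtered. Names came from the platform annotation, with 34945 probe sets of 1 symbol, 932 of several and 9160 unlisted. A gene was represented by its probe set of highest mean over all arrays. Groups were compared with limma 3.58.1 in R 4.3.3 (lmFit, eBayes, 7 residual degrees of freedom), adjusted over all 45037 probe sets, threshold 0.05, and single values by exact permutation over 126 splits. SE, intervals and adjusted p-values are limma's. The fit was tested on simulated arrays. From each list, up to 4 genes of lowest adjusted p were named, or up to 2 where none passed. Members and lists were chosen with earlier results of these data known. The labels number the mice as biological replicates. Each mouse's sex came from its Xist and Y-linked values (3 female and 2 male Cre mice, 1 female and 3 male control mice). Alternatives were 3 scalings, 2 filters, a trended robust prior, array weights, a replicate block, sex, each array left out, a threshold of 0.01, gene means, and no probe sets open to several transcripts.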

Additional observations from a re-analysis of the deposited data

How the results depend on the processing

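The counts of mast cell genes that passed were 3 higher and 0 lower. They were 4 higher with quantile normalisation, array weights or averaging the probe sets of each gene, and 2 higher with sex as a covariate or at a threshold of 0.01. All probe sets numbered 5698 higher and 7202 lower in the main fit, and 2932 and 4377 at the threshold of 0.01. They numbered 6213 and 6508 with quantile normalisation, and 6956 and 8143 with array weights. With sex as a covariate they were 5509 and 6968, and with the replicate block 4679 and 6329. With probe sets ending in _s_at, _x_at or _a_at removed, 1 of 5 member probe sets was higher. Leaving out 1 array gave 2 to 4 genes higher and 0 to 2 lower, 4 to 6 member probe sets higher and 0 to 2 lower, and 4161 to 5931 higher and 5753 to 7381 lower of all probe sets. Replicate numbers 1 to 4 occur in both groups, but deviations of same-numbered arrays correlated at -0.268 to 0.078, so they were not read as pairs; with the replicate block, to which Cre mouse 5 adds nothing, 2 genes were higher and 1 lower (Cma1, adjusted p = 0.0244), 1 member probe set was lower, and Kit had an adjusted p of 0.0514. The sign of the Mcpt4 difference turned with quantile normalisation (0.0472), cyclic loess (0.0305), median subtraction (0.00687) and array weights (0.0318); the cause was not tested. Leaving out 1 array gave -0.176 to 0.0968 for Mcpt4, positive without Cre mouse 1, Cre mouse 2 or control mouse 2, and -0.265 to 0.0379 for the second Ms4a2 probe set, positive without Cre mouse 2. The brighter Tpsb2 probe set passed in 3 of 18 settings, among them quantile normalisation (0.65, adjusted p = 0.0396) and array weights (0.62, adjusted p = 0.0242). Of 213 differences recomputed, 195 kept direction and side of the threshold. Scaling moved the median of all differences from 0.03 to at most 0.07.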

Other observations

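None of the 24 sets of arrays checked, 12 member probe sets in each of the groups, held an array far from the others by Dixon's criterion. In the lists of mast cell biology, genes that were higher also included Gata1, by 0.30 (adjusted p = 0.0466), and the prostaglandin D2 receptor Ptgdr2, by 0.33 (adjusted p = 0.0291), both named after their values were seen.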
